A study of Mus musculus with 31 samples.

Results

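Perforin, 8 granzymes and serglycin, the core of the cytotoxic granule, were followed through 31 RNA-seq libraries. The cells were natural killer (NK) cells, sorted from mice. The 10 genes, out of 27179 in the count table, were taken by symbol and matched to Entrez identifiers: Prf1, Gzma, Gzmb, Gzmc, Gzmd, Gzme, Gzmf, Gzmk, Gzmm and Srgn. They were chosen with earlier results of these data known. The libraries cross 3 genotypes with 3 conditions, and the study asked how the cytokine TGFB1 changes NK cell transcripts. The genotypes were WT, TGFBRII_KO (loss of the type II TGF-β receptor, gene Tgfbr2) and CIS_KO (loss of CIS, gene Cish, a suppressor of cytokine signalling), and no allele or treatment is named that all groups share. The conditions were unstimulated cells, 4 h of TGFB1 and 24 h of TGFB1. WT had 4 libraries unstimulated, 2 at 4 h and 4 at 24 h. TGFBRII_KO had 3 libraries in each condition and CIS_KO had 4. The sources used here give neither strain, age, sex nor organ, nor the promoter or Cre behind each knockout. The labels give no culture time for the unstimulated cells, so whether each response includes time in culture is not known.

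Cytotoxic lymphocytes kill by releasing granules onto a target cell. Perforin forms pores in the target membrane, and granzymes, a family of serine proteases, enter through them and cleave intracellular proteins, which starts apoptosis. Serglycin is the proteoglycan that packs these proteins inside the granule. In mice most granzyme genes sit side by side on chromosome 14, and Gzmc to Gzmg encode proteases found in mice whose substrates are less well known than those of granzymes A and B. TGF-β is known as a suppressor of NK cell effector functions.

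On mm10, the cluster on chromosome 14 holds Gzme (56117619 to 56120625), Gzmd (56129556 to 56132603), Gzmg (56156581 to 56159579), Gzmn (56165786 to 56174612), Gzmf (56205263 to 56211407), Gzmc (56231397 to 56241647) and Gzmb (56258836 to 56262334), all as whole genes. Gzmg and Gzmn are granzyme genes outside the 10 and are given beside them. Gzma (113093824 to 113100981) and Gzmk (113171630 to 113180965) lie on chromosome 13. Chromosome 10 holds Prf1 (61297751 to 61304684), Srgn (62493833 to 62527445) and Gzmm (79689020 to 79695261).

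The promoters of 5 cluster genes are shown because they are close copies of each other around one short palindrome. The RefSeq promoter table (build GRCm38.p6, of which mm10 is the primary assembly) had entries for all 12 granzyme, perforin and serglycin genes. The 250 bases before each start were searched on both strands for TGACGTCA, known as a binding sequence of CREB and ATF factors. This motif was chosen after the promoters had been read. In these 60-base windows from the minus strand, written 5′ to 3′, capitals mark the 8 bases that match the motif with at most 1 mismatch.

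Gzmc, chr14:56234681-56234740: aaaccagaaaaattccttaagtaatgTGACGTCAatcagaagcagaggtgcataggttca

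Gzmd, chr14:56132621-56132680: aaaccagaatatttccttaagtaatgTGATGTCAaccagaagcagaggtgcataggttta

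Gzme, chr14:56120654-56120713: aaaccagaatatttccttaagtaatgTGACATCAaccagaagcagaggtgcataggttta

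Gzmf, chr14:56211456-56211515: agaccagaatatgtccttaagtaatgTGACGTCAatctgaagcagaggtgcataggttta

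Gzmg, chr14:56159623-56159682: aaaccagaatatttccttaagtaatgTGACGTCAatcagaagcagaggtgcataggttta

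The Gzmc window lies inside the annotated Gzmc gene, before an inner RefSeq start, and the other 4 lie outside their genes. The intact palindrome stood in Gzmc, Gzmf and Gzmg, and Gzmd and Gzme each carried 1 mismatch. The match began 57 bases before the start in Gzmc, 61 in Gzmd, 62 in Gzme, 82 in Gzmf and 77 in Gzmg. Of 32851 RefSeq mouse promoters, 1.55% held the intact motif in the same window and 10.6% held it with at most 1 mismatch. The SMAD box letters CAGAC, searched the same way, were in 42.2% of all promoters and in 7 of the 14 promoter entries of these 12 genes (Gzme, Gzmf, Gzmg, Gzmk, Gzmn and Srgn). A match describes letters only and says nothing of binding.

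The data are raw counts per gene, with totals of 297561 to 1403005 counts per library (median 736193). Of 6 NK cell markers, all passed the low-count filter and summed to 1760 to 3457 CPM in each library, CPM being counts scaled to a common library size with TMM factors. Of 8 T cell markers, Cd3d, Cd3e, Cd3g and Bcl11b passed and the list summed to 193 to 444 CPM. B cell and erythroid markers stayed at or under 4.99 and 2.06 CPM. Cish, the gene targeted in CIS_KO, ran from 18 to 56.1 CPM there, 130 to 289 in WT and 124 to 173 in TGFBRII_KO. Tgfbr2 counts overlapped between genotypes (199 to 276 CPM in TGFBRII_KO and 189 to 361 in WT), and counts over a whole gene cannot check the deletion of a part of it. Of 40 pairs of libraries from one group, 8 differed by less than sampling noise (chi-square per degree of freedom under 1). The labels call them biological replicates, so they were kept apart, and the calls with such libraries averaged into 1 are given after the comparisons. The labels do not tie each library to 1 mouse, so p-values measure the spread between these libraries.

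Abundant granzyme counts hardly followed library depth. Gzma had 439 counts in the library of 297561 counts and 543 in that of 1403005. Gzmc had 438 and 564 in the same libraries. Over all 31 libraries the highest Gzmc count was 1.29 times the lowest, and for Gzma the ratio was 1.34. Within groups, the slope of log2 count on log2 total, which is 1 where counts rise in proportion, was 0.13 for Gzmc, 0.15 for Gzma, 0.17 for Gzmd, 0.26 for Gzme, 0.38 for Gzmb and 0.39 for Gzmf. It was 0.56 for Srgn, 0.86 for Prf1 and 1.61 for Gzmm, which had few counts. The median slope of all 10275 genes tested was 1.17, and that of the 71 genes with at least 0.3 counts per base was 0.40. Duplicate removal is not given in the sources used here, and its part in the levelling was not tested. CPM of levelled genes was therefore high in shallow libraries, of which WT at 4 h replicate 1 (297561 counts) and CIS_KO unstimulated replicate 1 (392266) were the lowest 2. For these genes raw counts are given by library or as ranges, and the member calls are set beside a fit that has log2 total count as a covariate, called the depth covariate.

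**Figure D1:**
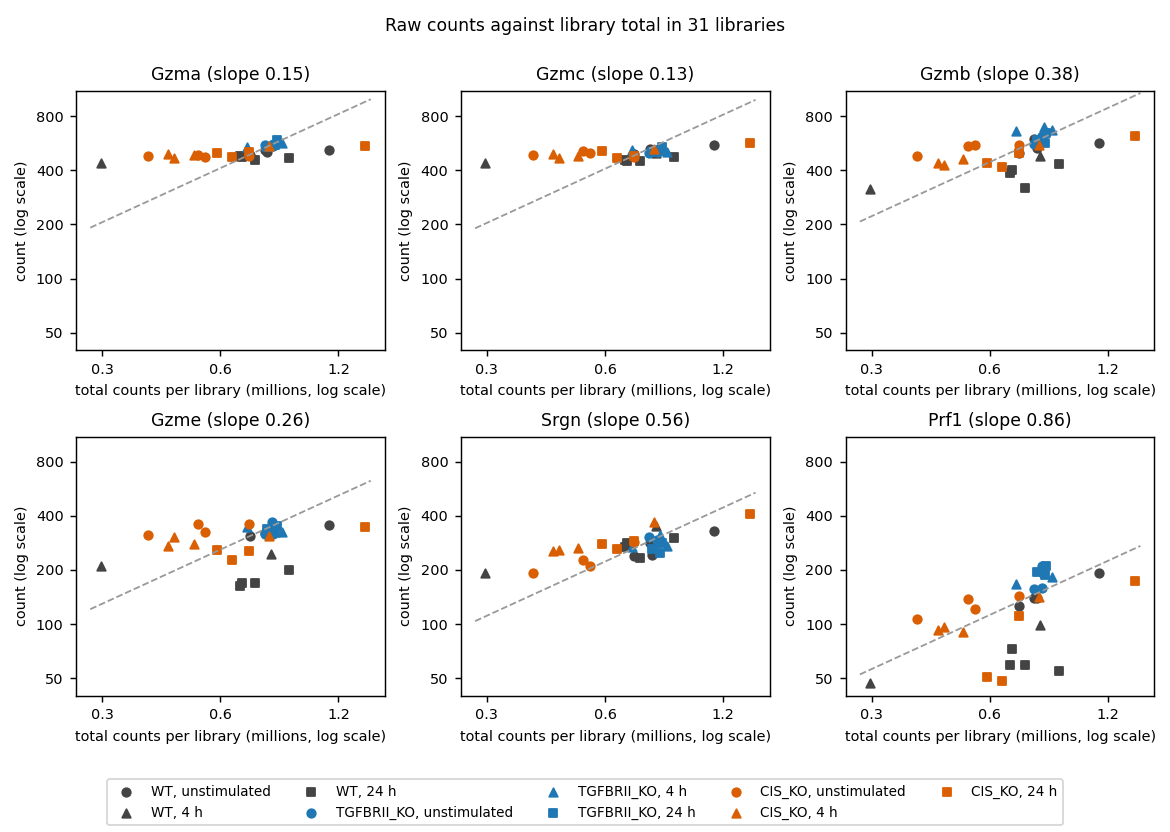
Raw counts of Gzma, Gzmc, Gzmb, Gzme, Srgn and Prf1 (y axis, log scale) against total counts of the library (x axis, log scale), 1 point per library, with a dashed line for counts in proportion to depth and the slope within groups in each title. Gzma and Gzmc stay within 439 to 589 and 438 to 564 counts over the whole range of depth, while Prf1 runs nearest to the proportional line.

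Per kilobase of transcript, Gzmc had the highest level over all libraries (mean 847 CPM per kb), followed by Gzma (777), Gzmd (606), Gzmb (535), Gzme (484), Gzmf (473), Srgn (235), Prf1 (73.3), Gzmm (5.13) and Gzmk (0.782). Levelled counts understate the most abundant of these in deep libraries, so neighbours in this order are not separated. Gzmd and Gzme transcripts are 94.8% identical, and 21.9% of the 50-base windows of Gzmd, 20.7% of those of Gzme and 19.4% of those of Gzmf occur in another gene. At 100 bases the shares were 0.231% for Gzmd, 0% for Gzme, 0.247% for Gzmg and 6.71% for Gzmf, and the read length is not given in the sources used here. Gzmc (4.14%) and Gzmn (6.06%) also shared 50-base windows with other cluster granzymes, and the 100-base windows of Gzmf were shared with Gm4022. How reads from such windows were assigned is not given, so the split between Gzmd, Gzme, Gzmf and Gzmg is uncertain. The same holds for Gzmc and Gzmn over fewer windows. No window of Prf1, Gzma, Gzmb, Gzmk, Gzmm or Srgn was shared. The kit kept strand, but the strand setting of the counting is not given in the sources used here.

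Perforin mRNA fell over 24 h of TGFB1 in WT and CIS_KO, and in TGFBRII_KO no change passed the test. Prf1 counts in WT were 140, 139, 192 and 126 unstimulated, 47 and 99 at 4 h, and 59, 55, 59 and 73 at 24 h. In TGFBRII_KO they were 157, 209 and 158 unstimulated, 195, 168 and 183 at 4 h, and 209, 195 and 187 at 24 h. In CIS_KO they were 107, 122, 138 and 144 unstimulated, 142, 96, 90 and 93 at 4 h, and 111, 173, 48 and 51 at 24 h. All 4 WT libraries at 24 h lay under all 4 unstimulated ones, TGFBRII_KO libraries did not separate by time, and in CIS_KO the 2 higher counts at 24 h came from its 2 deepest libraries of that group (710013 and 1403005 counts).

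In CPM, Prf1 in WT went from 172 ± 7.37 (SD, n = 4) unstimulated to 150 ± 37.2 (n = 2) at 4 h and 83.7 ± 20.3 (n = 4) at 24 h. CIS_KO went from 248 ± 43.1 to 206 ± 26.6 and 109 ± 36.3 (n = 4 each). TGFBRII_KO held 214 ± 32.8, 229 ± 17.2 and 239 ± 13.9 (n = 3 each). Ordered by mean, WT at 24 h was lowest, then CIS_KO at 24 h, WT at 4 h, WT unstimulated, CIS_KO at 4 h, the 3 TGFBRII_KO groups and CIS_KO unstimulated. Neighbours in that order lay within 1 SD of each other, except that WT at 4 h was more than 1 SD above CIS_KO at 24 h and CIS_KO at 4 h was more than 1 SD above WT unstimulated.

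By edgeR's quasi-likelihood test, adjusted over all 10275 genes, the log2 fold change of Prf1 at 24 h was -1.05 ± 0.17 (SE) in WT (adjusted p = 9.61e-06) and -1.13 ± 0.16 in CIS_KO (adjusted p = 2.36e-06). It was 0.15 ± 0.16 in TGFBRII_KO, which did not pass. The response of TGFBRII_KO exceeded that of WT by 1.21 ± 0.24 at 24 h (adjusted p = 3.90e-04), where 10.8% of all genes tested differed between these responses. At 4 h the log2 fold change was -0.27 ± 0.21 in WT, 0.09 ± 0.17 in TGFBRII_KO and did not pass in CIS_KO. The depth covariate gave 24 h values of -1.11 in WT and -0.95 in CIS_KO, and both passed. It called 6 of 9 members lower in WT at 24 h, where 13.5% of all genes were lower, and 4 of 9 in CIS_KO, where 9.39% were. No left-out library ended either call. In bulk RNA, fewer cells of a type and less RNA per cell cannot be told apart. Sums of NK cell markers overlapped between unstimulated and 24 h libraries of WT (2164 to 2630 and 2206 to 2467 CPM) and of CIS_KO (2457 to 3322 and 1760 to 2554 CPM).

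**Figure D2:**
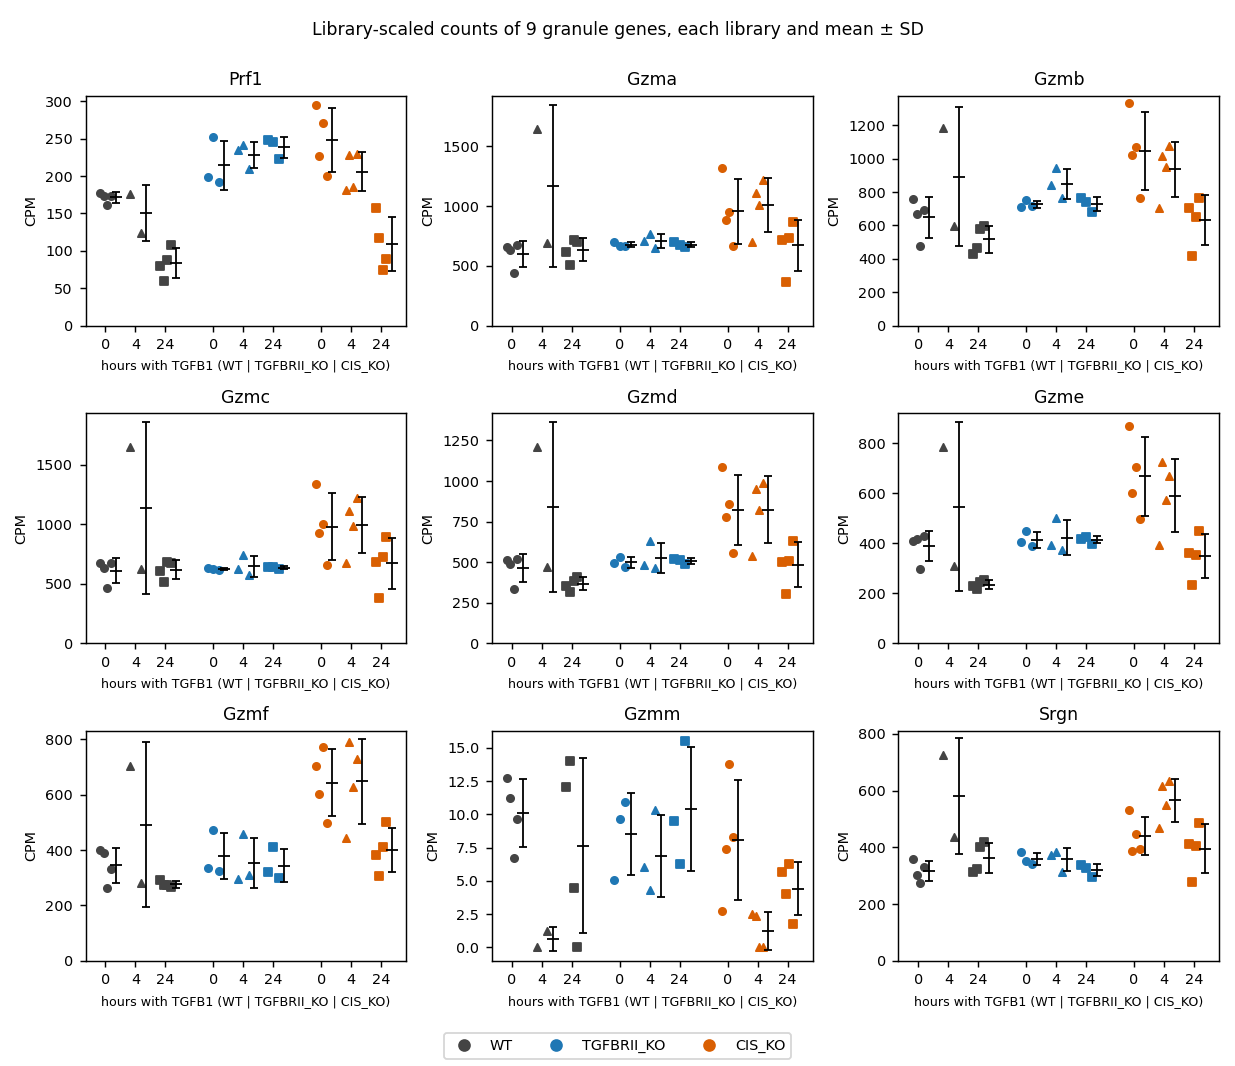
CPM (TMM-scaled, y axis) of the 9 tested members in the 9 groups (x axis, hours with TGFB1 in each genotype), 1 point per library with the group mean and SD as bars. Prf1 and Gzme of WT at 24 h lie under every unstimulated WT library, and the single high point in WT at 4 h for the levelled granzymes is the shallowest library.

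At 24 h in WT, 2 of the 9 members that passed the low-count filter were called, both lower (Prf1 and Gzme), where 11.5% of all genes tested were lower and 21.1% changed in either direction. The median log2 fold change of the 9 was -0.32, against 0.03 for all genes. In CIS_KO 5 of 9 were called at 24 h, all lower (Prf1, Gzmb, Gzmd, Gzme and Gzmf), with 11.7% of all genes lower and 24% changed, and a median of -0.73 against 0.04. In TGFBRII_KO none of 9 was called at 24 h, where 0.0195% of all genes tested were called, and the median was 0.00 against 0.01. DESeq2 called 0 of them as well, and 0 had an unadjusted p under 0.05.

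Of the cluster granzymes among the 10, Gzme was called lower in both WT and CIS_KO at 24 h. Gzmn, outside the 10, was as well and is described with the cluster's neighbours. Gzme counts in WT were 321, 335, 354 and 310 unstimulated, 209 and 245 at 4 h, and 169, 199, 163 and 170 at 24 h. TGFBRII_KO gave 318, 371 and 318 unstimulated, 326, 348 and 325 at 4 h, and 352, 338 and 334 at 24 h. CIS_KO gave 314, 323, 359 and 358 unstimulated, 307, 305, 278 and 271 at 4 h, and 256, 347, 227 and 257 at 24 h. The WT ranges fell apart completely between unstimulated and 24 h, the TGFBRII_KO ranges overlapped, and in CIS_KO the deepest library (347 counts) reached into the unstimulated range.

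The log2 fold change of Gzme at 24 h was -0.72 ± 0.21 in WT (adjusted p = 0.0103) and -0.94 ± 0.20 in CIS_KO (adjusted p = 8.44e-04), and 0.00 ± 0.23 in TGFBRII_KO. In the fit with the depth covariate it was -0.86 in WT and -0.46 in CIS_KO, and both passed. The difference between the TGFBRII_KO and WT responses was 0.73 ± 0.31 and did not pass (adjusted p = 0.147), but passed with the depth covariate at 0.89 (adjusted p = 7.54e-08), as 8.61% of all genes did in that direction. At 24 h TGFBRII_KO exceeded WT by 0.82 ± 0.22 (adjusted p = 0.00594).

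Gzmd counts in WT were 402, 390, 399 and 377 unstimulated, 322 and 373 at 4 h, and 261, 294, 257 and 276 at 24 h. TGFBRII_KO stayed between 386 and 443 in all 9 libraries. CIS_KO gave 393, 421, 438 and 403, then 422, 400, 398 and 400, then 354, 448, 324 and 363. The 3 WT conditions did not overlap in counts. In CPM, which rises for this gene as depth falls, the WT change at 24 h was -0.34 ± 0.22 and did not pass (adjusted p = 0.308), but passed with the depth covariate at -0.49 (adjusted p = 1.80e-07). In CIS_KO it was -0.77 ± 0.22 (adjusted p = 0.0101), and -0.24 with the depth covariate, which passed. The CIS_KO call ended without CIS_KO unstimulated replicate 1 (-0.61, adjusted p = 0.063) and without CIS_KO 24 h replicate 2 (-0.59, adjusted p = 0.0597).

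Gzmf counts in WT were 315, 311, 314 and 239 unstimulated, 187 and 225 at 4 h, and 218, 253, 183 and 179 at 24 h. TGFBRII_KO ran from 244 to 393 over its 9 libraries. CIS_KO gave 255, 324, 394 and 358, then 348, 333, 305 and 295, then 271, 454, 263 and 288. Ranges overlapped in every genotype between unstimulated and 24 h. The change at 24 h was -0.32 in WT, which did not pass (-0.43 with the depth covariate, adjusted p = 0.0113), and -0.69 ± 0.20 in CIS_KO (adjusted p = 0.012). The CIS_KO call was lost with the depth covariate (-0.29, adjusted p = 0.12), without CIS_KO unstimulated replicate 3 (-0.59) and without CIS_KO 24 h replicate 2 (-0.58).

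Granzyme B cleaves after aspartate and activates caspases in the target cell. Gzmb counts in WT were 596, 534, 569 and 500 unstimulated, 316 and 477 at 4 h, and 320, 433, 388 and 401 at 24 h. TGFBRII_KO gave 563, 622 and 589 unstimulated, 698, 657 and 671 at 4 h, and 643, 590 and 570 at 24 h. CIS_KO gave 482, 551, 545 and 551, then 553, 427, 462 and 436, then 500, 621, 416 and 438. No WT library with TGFB1 reached the lowest unstimulated count of 500, whereas all 3 TGFBRII_KO libraries at 4 h lay above the unstimulated ones. The change at 24 h was -0.73 ± 0.18 in CIS_KO (adjusted p = 0.00356; -0.32 with the depth covariate, which passed). In WT it was -0.32 ± 0.18 and did not pass (adjusted p = 0.23), but passed with the depth covariate at -0.44 (adjusted p = 3.54e-06). In TGFBRII_KO at 4 h Gzmb passed with the depth covariate alone (0.21, adjusted p = 0.0449), where 13.2% of all genes did.

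Granzyme A is a tryptase that cleaves after lysine or arginine. Gzma counts in WT were 516, 504, 521 and 486 unstimulated, 439 and 549 at 4 h, and 457, 470, 482 and 471 at 24 h. TGFBRII_KO ran from 535 to 589, and CIS_KO from 468 to 547. Gzmc counts in WT were 528, 508, 549 and 490, then 438 and 500, then 450, 473, 457 and 452, with 499 to 541 in TGFBRII_KO and 465 to 564 in CIS_KO. Both genes had slightly lower counts in all 4 WT libraries at 24 h than in any unstimulated one. In CPM neither passed at 24 h in WT (Gzma 0.09 ± 0.22, Gzmc 0.02 ± 0.22) or in CIS_KO (Gzma -0.51 ± 0.22, adjusted p = 0.087; Gzmc -0.55 ± 0.22, adjusted p = 0.0693). With the depth covariate Gzmc in WT was -0.15 (adjusted p = 0.0201) and Gzma -0.08, which did not pass. The CIS_KO values then were 0.00 for Gzma and -0.03 for Gzmc, and neither passed.

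**Figure D3:**
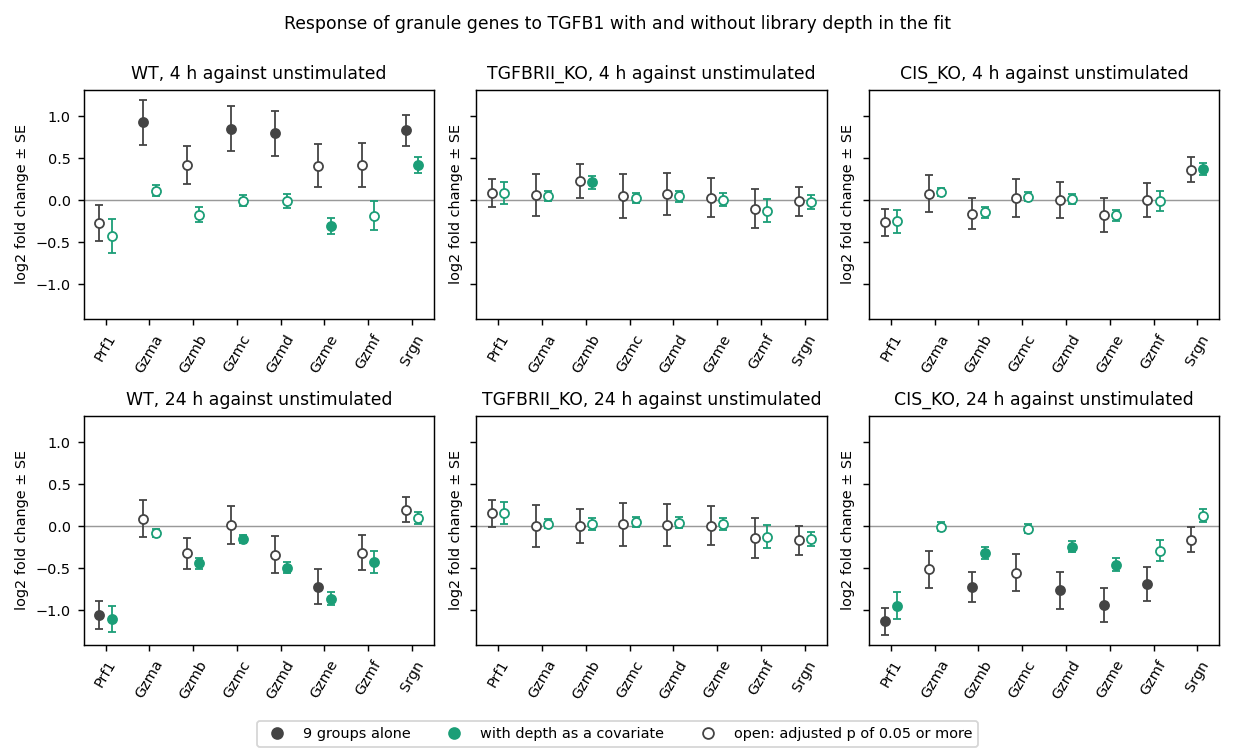
Log2 fold change against unstimulated cells (y axis) with its standard error for the tested members except Gzmm (x axis), at 4 h and 24 h of TGFB1 in the 3 genotypes, by the fit across all genes and by the fit with the depth covariate; open points did not pass. Prf1 and Gzme lie below 0 at 24 h in WT and CIS_KO in both fits, and the values of WT at 4 h for Gzma, Gzmc and Gzmd move to about 0 with the depth covariate.

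At 4 h in WT, 4 of the 9 tested members were called, all higher (Gzma, Gzmc, Gzmd and Srgn), where 6.9% of all genes tested were higher and 11.9% changed. The log2 fold changes were 0.93 ± 0.27 for Gzma (adjusted p = 0.0182), 0.85 ± 0.27 for Gzmc (adjusted p = 0.0347) and 0.80 ± 0.27 for Gzmd (adjusted p = 0.0457). These 3 rest on the shallowest library: the raw counts of WT at 4 h replicate 1 were below every unstimulated WT count for each of them. Without that library the values were 0.20, 0.03 and 0.01, and with the depth covariate 0.11, 0.00 and -0.01, and none passed. They also ended without WT unstimulated replicate 3 (0.80, 0.73 and 0.66, with adjusted p of 0.0656, 0.107 and 0.138). The Gzmd call ended too without WT unstimulated replicate 2, WT 24 h replicate 3, CIS_KO unstimulated replicate 2 or 3, CIS_KO 4 h replicate 3 or CIS_KO 24 h replicate 1, at 0.80 to 0.84 with adjusted p of 0.0502 to 0.0586. DESeq2 called 2 of the 9, Gzma and Srgn, and not Gzmc (adjusted p = 0.057) or Gzmd (adjusted p = 0.0666). The depth covariate left Srgn higher and made Gzme lower at 4 h in WT (-0.31, adjusted p = 0.0315), where it called 10.7% of all genes. Without WT 4 h replicate 4, which leaves the shallow library alone, Gzmb, Gzme and Gzmf were called higher (0.88, 1.02 and 1.03). In TGFBRII_KO none of the 9 was called at 4 h (0 by DESeq2, and 0 at an unadjusted p under 0.05), where 8.02% of all genes tested were called.

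Within each library the other cluster granzymes could also be set against Gzmc, the member with the flattest counts. This ratio was chosen after the values were seen and is given without a test. The Gzme to Gzmc count ratio in WT was 0.608 to 0.659 unstimulated, 0.477 to 0.49 at 4 h and 0.357 to 0.421 at 24 h. In CIS_KO it was 0.647 to 0.76, 0.55 to 0.655 and 0.488 to 0.615, and in TGFBRII_KO 0.627 to 0.722, 0.633 to 0.676 and 0.642 to 0.667. The 3 WT conditions were separate and in descending order, CIS_KO separated at 24 h from unstimulated, and TGFBRII_KO overlapped throughout. For Gzmd the WT ratio was 0.727 to 0.769 unstimulated, 0.735 to 0.746 at 4 h and 0.562 to 0.622 at 24 h. For Gzmb it was 1.02 to 1.13 unstimulated, 0.721 to 0.954 at 4 h and 0.711 to 0.915 at 24 h. The shallowest library, WT at 4 h replicate 1, gave the lower value of its group for Gzma, Gzmb, Gzmd, Gzme and Gzmf. The slope of counts on depth was 0.13 for Gzmc, 0.26 for Gzme and 0.38 for Gzmb, so these ratios can move with depth.

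**Figure D4:**
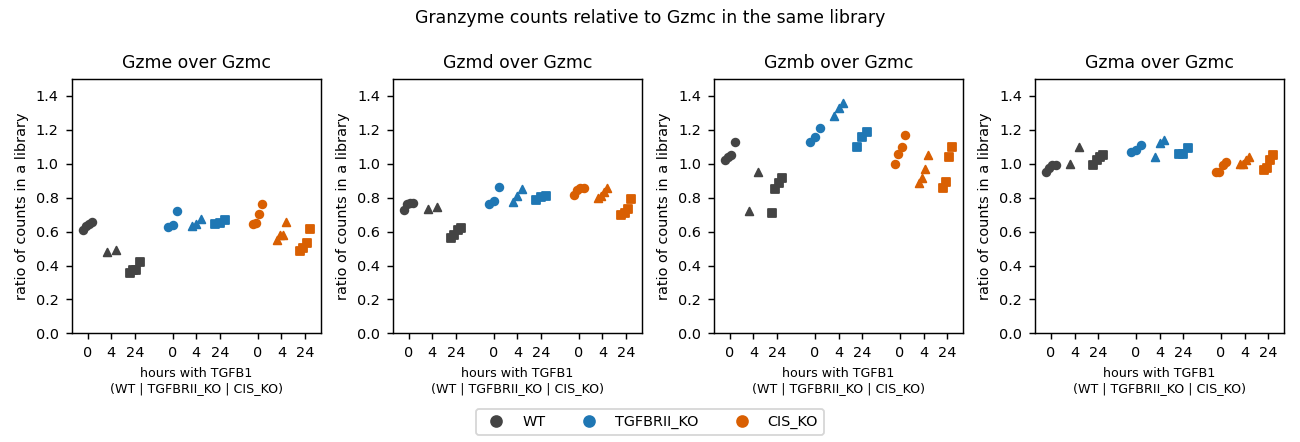
Count of Gzme, Gzmd, Gzmb and Gzma divided by the count of Gzmc in the same library (y axis, linear) in the 9 groups (x axis, hours with TGFB1 in each genotype), 1 point per library, in ascending order within a group. The Gzme ratio falls from 0.608 to 0.659 in unstimulated WT cells to 0.357 to 0.421 at 24 h and stays between 0.627 and 0.722 in all TGFBRII_KO libraries.

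Gzmm, a granzyme that prefers methionine and leucine, had 0 to 13 counts per library. WT gave 10, 9, 8 and 7 unstimulated, 0 and 1 at 4 h, and 9, 13, 3 and 0 at 24 h. TGFBRII_KO gave 4, 8 and 9, then 5, 3 and 9, then 8, 5 and 13. CIS_KO gave 1, 4, 7 and 6, then 2, 1, 0 and 0, then 4, 6, 4 and 1. Both WT libraries at 4 h lay under all unstimulated ones, and the CIS_KO counts overlapped. In CIS_KO at 4 h the log2 fold change of Gzmm was -2.43 ± 0.84 (adjusted p = 0.047), the 1 member of 9 called there, where 6.3% of all genes tested were lower and 14.1% changed. DESeq2 did not call it (adjusted p = 0.0759) and called 0 members there. The edgeR call ended in 15 of 31 fits that left out 1 library, at -3.19 to -2.08 with adjusted p up to 0.144: those without CIS_KO unstimulated replicate 2, 3 or 4, any 1 of the CIS_KO 4 h libraries, CIS_KO 24 h replicate 1 or 3, WT unstimulated replicate 2 or 4, TGFBRII_KO unstimulated replicate 2 or 3, TGFBRII_KO 4 h replicate 1 or TGFBRII_KO 24 h replicate 1. In WT at 4 h the value was -3.18 ± 1.10 and did not pass (adjusted p = 0.0533). Gzmk, a tryptase like granzyme A, had 0 to 3 counts, with 17 libraries at 0. It was the member that did not pass the low-count filter, and no difference was detectable at this depth.

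Serglycin mRNA was higher at 4 h of TGFB1 in WT. Srgn counts in WT were 283, 241, 328 and 240 unstimulated, 193 and 349 at 4 h, and 232, 300, 268 and 282 at 24 h. TGFBRII_KO gave 303, 293 and 281, then 311, 267 and 273, then 284, 260 and 249. CIS_KO gave 192, 209, 227 and 285, then 367, 259, 266 and 256, then 291, 410, 260 and 280. Counts overlapped in WT and TGFBRII_KO, and in CIS_KO 1 unstimulated library (285) lay within the 4 h range. The log2 fold change at 4 h was 0.83 ± 0.18 in WT (adjusted p = 0.00204; 0.42 with the depth covariate, adjusted p = 0.0025), and 0.46 without WT 4 h replicate 1, which did not pass (adjusted p = 0.224). Of 6 myeloid markers, Cd14 passed the low-count filter, and the list summed to 9.99 to 21.6 CPM in unstimulated WT and 28.8 to 33.8 at 4 h, with S100a8 and S100a9 at 0 in both groups. T cell markers summed to 337 to 382 CPM and 236 to 263 CPM in the same groups. Their sums went from 431 to 444 CPM to 252 to 304 CPM in TGFBRII_KO. In CIS_KO they went from 293 to 347 CPM to 193 to 286 CPM. The part of either list in the Srgn result was not tested. In CIS_KO the Srgn change was 0.37 ± 0.15 (adjusted p = 0.107), and 0.37 with the depth covariate (adjusted p = 2.51e-04), which called 17.7% of all genes there. It was -0.01 ± 0.17 in TGFBRII_KO. The TGFBRII_KO response at 4 h was lower than that of WT by a log2 difference of -0.84 ± 0.25 (adjusted p = 0.0322), and -0.44 with the depth covariate (adjusted p = 0.0203), where 3.61% of all genes tested differed in that direction, and 4.44% with the depth covariate. This call ended without WT unstimulated replicate 2 (-0.81) or 3 (-0.77), WT 4 h replicate 1 (-0.48), TGFBRII_KO unstimulated replicate 1 (-0.79) or 2 (-0.85), or TGFBRII_KO 4 h replicate 3 (-0.75). At 24 h Srgn did not pass in WT (0.20 ± 0.15) or CIS_KO (-0.16 ± 0.15).

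Between 4 h and 24 h, 6 of 9 members were lower in WT (Prf1, Gzma, Gzmb, Gzmd, Gzme and Srgn), where 4.57% of all genes tested were lower, and 6 of 9 in CIS_KO (Prf1, Gzmb, Gzmd, Gzme, Gzmf and Srgn), where 7.7% were. In TGFBRII_KO none was called (0 by DESeq2, and 0 at an unadjusted p under 0.05), with 8.17% of genes called in either direction. In WT the log2 changes were -1.14 ± 0.27 for Gzmd, -1.13 ± 0.26 for Gzme, -0.84 ± 0.27 for Gzma, -0.78 ± 0.23 for Prf1, -0.75 ± 0.23 for Gzmb and -0.63 ± 0.18 for Srgn. All 6 ended without WT 4 h replicate 1, at -0.37, -0.40, -0.13, -0.60, -0.22 and -0.28 in the same order. Without WT 24 h replicate 1 or 2 the calls of Prf1 (-0.77 and -0.62), Gzmb (-0.68 and -0.70), Gzma (-0.84 and -0.74) and Srgn (-0.58 both) ended as well. The Gzma call also ended without WT unstimulated replicate 4, TGFBRII_KO 24 h replicate 3, CIS_KO unstimulated replicate 2 or 3, CIS_KO 4 h replicate 2 or 3 or CIS_KO 24 h replicate 1, at -0.88 to -0.84.

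In CIS_KO the change from 4 h to 24 h was -0.87 ± 0.17 for Prf1 (adjusted p = 5.17e-04), which no left-out library ended. It was -0.77 ± 0.22 for Gzmd, -0.76 ± 0.21 for Gzme, -0.70 ± 0.20 for Gzmf, -0.57 ± 0.18 for Gzmb and -0.53 ± 0.15 for Srgn. Each of these ended without CIS_KO 24 h replicate 2, the library of 1403005 counts, at -0.60, -0.60, -0.59, -0.42 and -0.39. Each also ended without CIS_KO 4 h replicate 2, at -0.70, -0.65, -0.59, -0.53 and -0.49. Leaving out CIS_KO 4 h replicate 4 ended Gzmd (-0.68), Gzmf (-0.64), Gzmb (-0.50) and Srgn (-0.47), and Gzmb ended also without CIS_KO 4 h replicate 3 (-0.57) or CIS_KO 24 h replicate 3 (-0.59). Gzmb and Gzmf were no longer called in CIS_KO with the depth covariate, and Gzmb was not in WT, where that fit called 6.3% and 5.42% of all genes lower. Its values in CIS_KO were -0.70 for Prf1, -0.26 for Gzmd, -0.28 for Gzme, -0.28 for Gzmf, -0.18 for Gzmb and -0.25 for Srgn. In WT they were -0.49 for Gzmd, -0.56 for Gzme, -0.19 for Gzma, -0.68 for Prf1, -0.27 for Gzmb (adjusted p = 0.0512) and -0.32 for Srgn. In libraries of 500000 to 1000000 counts, Prf1 in CIS_KO (-0.74) alone stayed past the threshold. That range kept 1 WT library and 2 CIS_KO libraries at 4 h, so matched depth and lost replication cannot be told apart. Of these 12 calls over both genotypes, a fit of the compared groups alone left 6. They were Gzmd and Gzme in WT and Prf1, Gzmd, Gzme and Gzmf in CIS_KO. That fit called Gzmb lower in TGFBRII_KO (-0.25, adjusted p = 0.0455).

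Set against WT at 24 h, TGFBRII_KO had more perforin and granzyme E transcript. Prf1 was higher by a log2 of 1.53 ± 0.17 (adjusted p = 1.26e-08) and Gzme by 0.82 ± 0.22, the 2 of 9 members called, where 11.5% of all genes tested were higher. Counts of both genes did not overlap between these groups, and no left-out library ended either call. T cell markers differed too: the list of 8 summed to 382 to 433 CPM in TGFBRII_KO and 289 to 367 in WT at 24 h. Cd3d and Bcl11b of the 4 tested were called higher. In unstimulated cells, the list summed to 431 to 444 CPM in TGFBRII_KO and 337 to 382 in WT. The part of these markers in the result was not tested. With the depth covariate 7 of 9 were called higher, where 14.5% of all genes were, adding Gzmb (0.60, adjusted p = 2.60e-08), Gzmd (0.60), Gzmf (0.40), Gzma (0.24) and Gzmc (0.18). At 4 h Prf1 was higher in TGFBRII_KO by 0.69 ± 0.22 (adjusted p = 0.0315) and Srgn lower at -0.66 ± 0.19 (adjusted p = 0.0207), with 5.63% of genes higher and 6.17% lower. The depth covariate gave 0.82 for Prf1 and -0.29 for Srgn (adjusted p = 0.003 and 0.04). It also called Gzmb and Gzme higher, each with the sign opposite to the fit without it, where 643 of 10275 genes were higher. DESeq2 called Srgn and not Prf1 (0.66, adjusted p = 0.0543). The Prf1 call at 4 h ended without WT unstimulated replicate 1 (0.65), WT 4 h replicate 4 (0.37), TGFBRII_KO 4 h replicate 1 (0.67) or 2 (0.64), or TGFBRII_KO 24 h replicate 3 (0.65). The Srgn call ended without WT 4 h replicate 1 (-0.29) or TGFBRII_KO 4 h replicate 3 (-0.57). Unstimulated, none of 9 was called (0 by DESeq2, and Prf1 alone at an unadjusted p under 0.05), with 0.146% of genes called. Comparisons with WT at one time share those WT libraries.

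Against WT, members were called in CIS_KO in unstimulated cells, and none of those calls was kept with the depth covariate. There 5 of 9 members were higher, Gzmf by 0.90 ± 0.20, Gzmd by 0.82 ± 0.22, Gzme by 0.78 ± 0.20, Gzmb by 0.69 ± 0.18 and Prf1 by 0.51 ± 0.15, with adjusted p of 0.0119 to 0.0407, where 3.19% of all genes tested were higher. Totals were 392266 to 711659 in these CIS_KO libraries and 712432 to 1135104 in those of WT. No CIS_KO library was as deep as any WT one, so depth and genotype cannot be told apart in this comparison. In the fit with the depth covariate the values were 0.44, 0.20, 0.21, 0.20 and 0.35 and none was called, as against 0.71% of all genes. Raw counts of all 5 overlapped. The calls of Gzmb, Gzmd, Gzme, Gzmf and Prf1 ended without WT unstimulated replicate 3 or CIS_KO unstimulated replicate 3. Those of Gzmb, Gzmd, Gzme and Prf1 also ended without CIS_KO unstimulated replicate 1, those of Gzmb, Gzmd and Prf1 without CIS_KO unstimulated replicate 2, and that of Prf1 without WT unstimulated replicate 2 or 4. At 4 h and 24 h none of 9 was called by edgeR or DESeq2 (1 and 3 at an unadjusted p under 0.05), where 0.273% and 3.27% of all genes were. Gzmb (0.33), Gzmd (0.45), Gzme (0.62) and Gzmf (0.58) were higher at 24 h with the depth covariate, where 3.21% of all genes were. No difference between the CIS_KO and WT responses passed for a member by edgeR or DESeq2 at 4 h (3 at an unadjusted p under 0.05) or at 24 h (0), where 0% and 1.33% of all genes passed. Xist ran from 91.1 to 222 CPM in WT, 12.6 to 131 in TGFBRII_KO and 0 to 5.22 in CIS_KO, and summed Y-linked transcripts from 1.38 to 124, 187 to 451 and 392 to 558 CPM, so the sex make-up of the libraries moved with genotype and its part in these differences cannot be told apart from it.

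Libraries linked by pairs that differed by less than sampling noise were averaged into 1, an alternative chosen after seeing the data. Pairs were chained, so replicates 2 and 3 of TGFBRII_KO unstimulated (chi-square per degree of freedom 1.14) were averaged too. So were replicates 1 and 2 of TGFBRII_KO at 24 h (1.01). TGFBRII_KO unstimulated and at 24 h kept 1 library each. Their spread is then assumed to be that of the other groups. Prf1 stayed past the threshold in each comparison named above except CIS_KO against WT unstimulated, at -1.06 in WT and -1.17 in CIS_KO at 24 h, 1.55 for TGFBRII_KO against WT at 24 h and 1.21 for the difference of responses. Gzmb (-0.78) and Gzme (-0.98) in CIS_KO at 24 h and Srgn in WT at 4 h (0.82) also stayed, as did Gzmd and Gzme in WT from 4 h to 24 h (-1.15 each), and the other member calls did not. Among those lost, Gzme in WT at 24 h was -0.70 (adjusted p = 0.0668) and Gzme in TGFBRII_KO against WT at 24 h was 0.84 (adjusted p = 0.199). Gzmd (-0.81, adjusted p = 0.0702) and Gzmf (-0.68, adjusted p = 0.0752) in CIS_KO at 24 h were lost too, and so was the Srgn difference of responses (-0.84, adjusted p = 0.309).

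The granzyme cluster was then described with its neighbours within 200000 bases, a window chosen after values of Mcpt8 and Cma1 had been seen. Of 33 annotated genes there, 19 were in the count table and 11 passed the filter. In order these were Cma1, the pseudogene Gm5801, Mcpt8, Ctsg, Gzme, Gzmd, Gzmg, Gzmn, Gzmf, Gzmc and Gzmb. Cma1, Mcpt8 and Ctsg encode a chymase, a mast cell protease and cathepsin G, related serine proteases of mast cells and granulocytes. Mcpt8 counts were 106 to 150 in unstimulated WT, 17 to 35 in WT at 24 h and 138 to 159 in TGFBRII_KO at 24 h, and 71 to 104 and 32 to 86 in CIS_KO unstimulated and at 24 h. The ranges were far apart in WT. The log2 fold change of Mcpt8 at 24 h was -2.03 ± 0.18 in WT (adjusted p = 6.58e-11), -1.61 ± 0.17 in CIS_KO and 0.13 ± 0.15 in TGFBRII_KO. For Cma1 it was -1.60 ± 0.29 in WT (adjusted p = 7.00e-05), -1.28 ± 0.29 in CIS_KO and -0.30 ± 0.26 in TGFBRII_KO. For Ctsg it was -1.59 ± 0.35 in WT (adjusted p = 7.87e-04), -1.17 ± 0.27 in CIS_KO and -0.89 ± 0.32 in TGFBRII_KO, which did not pass. Both genes had few counts. In WT, unstimulated and at 24 h, Cma1 had 22 to 48 and 7 to 10, and Ctsg 19 to 34 and 5 to 11. In CIS_KO the ranges overlapped, at 12 to 27 and 7 to 24 for Cma1 and 15 to 58 and 8 to 59 for Ctsg.

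Gzmn, a cluster granzyme with fewer counts, fell by 1.18 ± 0.27 on the log2 scale in WT at 24 h (adjusted p = 0.00124), from 64, 72, 85 and 73 counts to 32, 28, 26 and 26, with no overlap. In CIS_KO it was lower by a log2 value of -1.38 ± 0.23 (adjusted p = 3.24e-05), and TGFBRII_KO at 24 h held 69, 73 and 68 counts. Along the cluster, log2 changes in WT at 24 h were past the threshold for Cma1, Mcpt8, Ctsg, Gzme and Gzmn, where 11.5% of all genes were lower. They were not for Gm5801, Gzmd, Gzmg, Gzmf, Gzmc and Gzmb. Of these, Gzmd, Gzmg, Gzmf, Gzmc and Gzmb passed with the depth covariate, where 13.5% of all genes were lower. As values of Mcpt8 and Cma1 had been seen when the window was chosen, the number of genes called describes this window only. Markers of mast cells and basophils, which include Mcpt8 and Cma1, moved with these falls: 3 of 6 passed the filter (Cpa3, Mcpt8, Cma1), and their list summed to 215 to 238 CPM in unstimulated WT and 60.4 to 84.6 at 24 h. The sums were 215 to 289 and 79.2 to 101 CPM in CIS_KO, and 253 to 327 and 246 to 280 in TGFBRII_KO. Fcer1a, Ms4a2 and Mcpt4 of that list were at 0 counts in all 31 libraries. The part of mast cells or basophils in these falls was not tested.

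**Figure D5:**
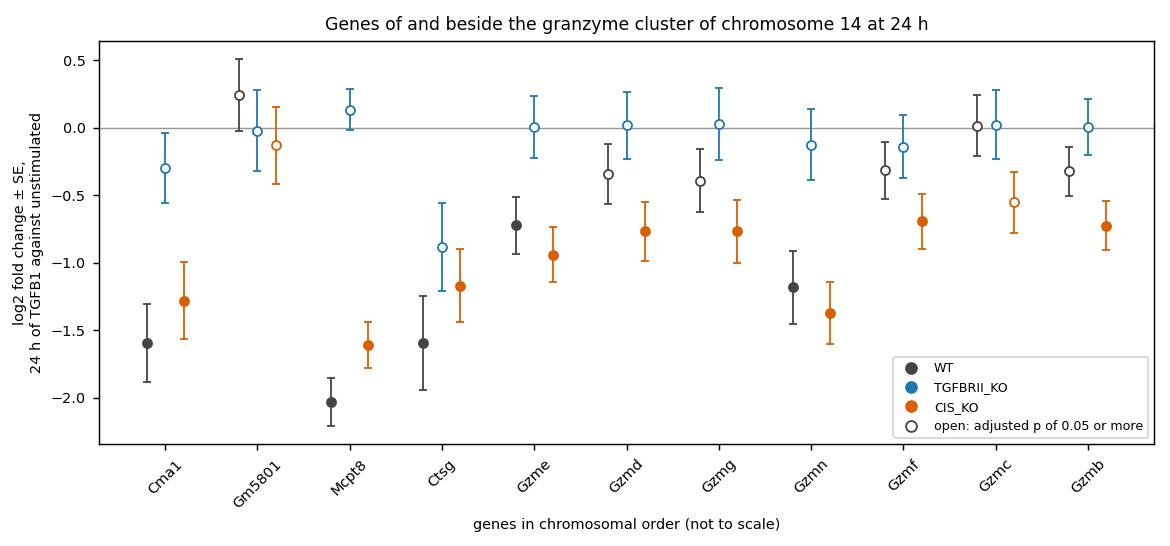
Log2 fold change at 24 h against unstimulated cells (y axis) with its standard error for the 11 genes of the cluster that passed the filter, in their order along chromosome 14 (x axis, gene order and not to scale), in the 3 genotypes; open points did not pass. Mcpt8, Cma1 and Ctsg lie lowest in WT at -2.03, -1.60 and -1.59, and most TGFBRII_KO values lie near 0.

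Other genes of the granule were taken from 5 lists with 36 genes, of which 34 were tested. Serpins that inhibit granzymes, which protect the killer cell from its own granules, were among the genes called. Of 4 tested, 3 were lower in WT at 24 h, against 11.5% of all genes (Serpinb6b -1.34 ± 0.10, adjusted p = 2.17e-12; Serpinb9 -1.20 ± 0.12, adjusted p = 8.68e-10; Serpinb9b -0.86 ± 0.18), with a median of -1.03, and Serpinb6a did not pass (-0.02 ± 0.13). In CIS_KO all 4 were lower, against 11.7% of all genes, with a median of -1.34, where Serpinb6a (-0.38 ± 0.13) was no longer called with the depth covariate or without TGFBRII_KO 24 h replicate 3, CIS_KO unstimulated replicate 1, 2 or 3, or CIS_KO 24 h replicate 2. None was called in TGFBRII_KO at 24 h, and its response exceeded that of WT for Serpinb6b (1.43 ± 0.15) and Serpinb9 (1.19 ± 0.17). Serpinb9, the inhibitor of granzyme B, was already lower at 4 h in WT (-0.96 ± 0.16, adjusted p = 3.70e-05) and CIS_KO (-0.78 ± 0.12), whereas in TGFBRII_KO it was higher (0.46 ± 0.13), a call that ended without TGFBRII_KO unstimulated replicate 1 (0.42) or TGFBRII_KO 4 h replicate 1 (0.43) or 3 (0.47). In CIS_KO at 4 h Serpinb9b (-0.56 ± 0.17) and Serpinb6b (-0.29 ± 0.10) were lower too, calls that ended in 3 and 20 of the 31 fits that left out 1 library. The CPM of Serpinb9 in WT went from 437 ± 36.6 (SD, n = 4) to 216 ± 49.6 (n = 2) and 192 ± 31.3 (n = 4).

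Counts of the next 3 lists stand against all-gene shares called of 11.9% at 4 h and 21.1% at 24 h in WT, 14.1% and 24% in CIS_KO, and 8.02% at 4 h in TGFBRII_KO. Of 14 granule transport and release genes tested, Rab27a (0.55 ± 0.18), a GTPase of granule docking, and Sytl2 (0.61 ± 0.14), its effector, were higher at 4 h in WT, and at 0.42 ± 0.14 and 0.34 ± 0.12 in CIS_KO. The Sytl2 call in WT ended without WT 4 h replicate 1 (0.43), and that of Rab27a without either WT 4 h library (0.54 and 0.55) or WT unstimulated replicate 2 (0.50), 3 (0.54) or 4 (0.49). In CIS_KO the calls of Rab27a and Sytl2 ended in 13 and 14 of the 31 fits that left out 1 library. At 24 h 1 of 14 passed in each, Stx11, a membrane fusion syntaxin, lower at -0.39 ± 0.12 in WT and -0.66 ± 0.13 in CIS_KO. The WT call ended without WT unstimulated replicate 3 (-0.30) or WT 24 h replicate 1 (-0.31) or 2 (-0.36). Of 4 granule protease and cystatin genes tested, Ctsw, which encodes cathepsin W, was higher at 24 h in WT (0.51 ± 0.13) and CIS_KO (0.42 ± 0.14), and Cst7, which encodes cystatin F, was lower in CIS_KO (-0.39 ± 0.14). In CIS_KO the Ctsw call ended in 6 and the Cst7 call in 8 of the 31 fits that left out 1 library, with -0.23 for Cst7 without CIS_KO 24 h replicate 2 and 0.27 for Ctsw without CIS_KO 24 h replicate 4. Ctsc, whose protein activates granzymes by removing their propeptide, was lower at 4 h in TGFBRII_KO (-0.52 ± 0.13; -0.41 without TGFBRII_KO 4 h replicate 3, which did not pass). Of 10 transcriptional regulators, 4 passed in WT, 3 in TGFBRII_KO and 3 in CIS_KO at 4 h, and 2 in WT, 0 in TGFBRII_KO and 2 in CIS_KO at 24 h. Runx3 was higher in WT at 4 h (0.82 ± 0.14) and 24 h (0.58 ± 0.11) and in CIS_KO at 4 h (0.69 ± 0.11), and Eomes lower at 24 h in WT (-0.32 ± 0.10; -0.25 without WT 24 h replicate 3, which did not pass) and CIS_KO (-0.41 ± 0.10). Nfil3 was higher at 4 h in all 3 genotypes, at 0.54 ± 0.14 in WT (0.20 without WT 4 h replicate 4, which did not pass), 0.72 ± 0.12 in TGFBRII_KO and 0.62 ± 0.12 in CIS_KO. Stat4 was lower at 4 h in WT (-0.53 ± 0.14), a call that ended without WT unstimulated replicate 3 or WT 4 h replicate 1 (-0.39), and in TGFBRII_KO (-0.40 ± 0.12), a call that ended without TGFBRII_KO unstimulated replicate 1 (-0.34) or 3 (-0.36) or TGFBRII_KO 4 h replicate 2 (-0.29). Ets1 was higher at 4 h in WT (0.46 ± 0.12; not called without WT 4 h replicate 1, at 0.40, or 4, at 0.51) and lower at 24 h in CIS_KO (-0.54 ± 0.11). Prdm1 was higher at 4 h in TGFBRII_KO (0.48 ± 0.11) and in CIS_KO (0.35 ± 0.11), where the call ended without CIS_KO unstimulated replicate 2 (0.30) or 3 (0.32) or CIS_KO 4 h replicate 2 (0.30). Tbx21, Zeb2, Stat5a and Stat5b passed in none of the 6 responses.

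Over the 31 libraries, the genes whose log2 CPM followed Prf1 most closely were Basp1 (Pearson r = 0.92) and Serpinb6b (r = 0.92). Those most like Gzme were Tmsb15a (r = 0.97) and Gzmg (r = 0.96). Gzma was most like Gzmc (r = 0.99), with r of -0.975 for Gzma and -0.985 for Gzmc against log2 total count. Gzmb was most like Tnfrsf9 (r = 0.96), Gzmd and Gzmf like Gzmg (r = 0.99 and 0.94) and Srgn like Gnas (r = 0.95). These libraries share depth and groups, and the correlation with log2 total count was -0.23 for Prf1, -0.77 for Gzme, -0.80 for Gzmb and -0.88 for Srgn.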

How the data were processed

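RNA-seq was made from 31 libraries of sorted mouse NK cells. The authors deposited raw counts per Entrez gene. The submitters' processing notes name the build mm10 and the tools Trimmomatic, FastQC, Subread, SAMtools, Picard and featureCounts, without versions or order. The sources used here do not give the strand setting, the handling of multi-mapped reads or whether duplicates were removed. No other per-sample columns were left out (0). Symbols came from RefSeq for 25275 of 27179 identifiers, and the rest held 0.958% of counts.

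The test was edgeR (4.0.16, under R 4.3.3) on raw counts: filterByExpr on 9 groups (10275 genes left), TMM, 1 quasi-likelihood fit over all libraries, F-tests with Benjamini-Hochberg adjustment over all genes, calls at adjusted p under 0.05. Standard errors are the log2 fold change over the square root of F. CPM is the count scaled to a common library size with TMM factors. In all, 19 comparisons were made: 6 responses, 3 of 24 h against 4 h, 6 of knockout against WT and 4 differences of responses. The code was tested on simulated data. Alternatives were DESeq2 1.42.0, other scaling, no filter, a depth covariate, a replicate block, libraries of 500000 to 1000000 counts, the compared groups alone, and each library left out. Sequences came from RefSeq (GRCm38.p6). Transcripts were aligned with Biopython 1.88, and tables and figures made with Python 3.11.15, pandas 2.3.3, numpy 2.4.6 and matplotlib 3.10.9. The members, the lists and the rule for named genes (all members, list genes past the threshold in a response, and the genes most correlated with a member) were chosen with earlier results of these data known. Precision is limited by depth, from 297561 to 1403005 counts, and counting error is part of every value.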

Additional observations from a re-analysis of the deposited data

Results flagged for a closer look

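For each member and each group with 4 libraries, 49 sets of values in all, the highest and lowest library were compared with the others. Chance marks about 1 set in 20. Gzme in WT unstimulated replicate 3, at 297 CPM, lay far under the other 3 libraries of its group, and that library was the deepest of WT. Gzmk, which had at most 3 counts in any library, stood apart at 1.27 CPM in CIS_KO 4 h replicate 1 and at 3.48 CPM in CIS_KO 24 h replicate 4. Among the differences between responses, that of Prf1 between TGFBRII_KO and WT at 24 h was 1.21 on the log2 scale, and that of Srgn at 4 h was -0.84. Both passed the test of the difference itself.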

How the results depend on the processing

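Of 54 tests of members for a response to TGFB1, 12 passed; of 27 for 24 h against 4 h, 12; of 54 for knockout against WT, 9; and of 36 for differences of responses, 2. Pathway genes passed in 39 of 204 response tests and 23 of 204 knockout tests. Leaving out each library in turn gave 9 to 16, 6 to 16, 4 to 17, 1 to 6, 33 to 45 and 17 to 28. The share of all genes called in a response ran from 0.0195% (TGFBRII_KO at 24 h) to 24% (CIS_KO at 24 h). From 4 h to 24 h, 4.57% were lower in WT and 7.7% in CIS_KO, and 8.17% changed in TGFBRII_KO. Against WT, calls ran from 0.146% of genes (TGFBRII_KO unstimulated) to 1181 higher and 1037 lower of 10275 (TGFBRII_KO at 24 h). For differences of responses the share ran from 0% (CIS_KO at 4 h) to 10.8% (TGFBRII_KO at 24 h). RLE factors changed no member call. For 24 h against 4 h, the compared groups alone gave 7. Libraries of 500000 to 1000000 counts, which kept 1 WT library at 4 h, gave fewer still. For knockout against WT, no filter gave 20, the depth covariate 15, the replicate block with depth covariate 15 and the compared groups alone 14. For differences of responses, no filter gave 11, the depth covariate 6, the replicate block 1 and the block with depth covariate 6. Libraries averaged within noise (chosen after seeing the data) gave 5, 4, 2, 1, 21 and 9. The causes were not tested. Replicate numbers did not pair the libraries: of 107 pairs with the same number, 18 correlated over 0.1 in their deviations (median 0.00468), and the block gave 10, 9, 7 and 1 member calls. Of values past the threshold in either fit, those that changed sign with the depth covariate, and with the replicate block and depth covariate, were Gzmb in TGFBRII_KO against WT at 4 h (0.52 in both) and in the difference of responses (0.38 and 0.39), Gzmc in WT at 4 h (-0.0045 and -0.0040; -0.078 in libraries of 500000 to 1000000 counts) and at 24 h (-0.15 in both), Gzmd in WT at 4 h (-0.0059 and -0.0049; -0.12 in those libraries), and Gzme in WT at 4 h (-0.31 and -0.30) and in TGFBRII_KO against WT at 4 h (0.36 and 0.34). Totals of 297561 to 1403005 counts limit Gzmm and Gzmk most, and levelling limits folds of Gzma and Gzmc.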
